A study of Rattus norvegicus with 23 samples.

Results

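Complement genes of the rat dorsal hippocampus are described here across the 4 groups of a study of FKBP1b, a small binding protein that steadies intracellular calcium release channels. The genes are the 9 whose symbol stood alone beside a probe set of the array: C1qa, C1qb, C1qc, C1r and C1s of the first complement complex, the central component C3, the inhibitor Serping1, and the receptors C3ar1 and C5ar1. They were chosen by name with earlier results of these data known, and each had 1 probe set. They are 9 of the 14503 gene symbols on the array. All 9 passed the signal minimum of 40 on 4 arrays. Every array held RNA of the dorsal hippocampus of 1 male F344 rat. The LT group (n = 6, 21 months old) and the ST group (n = 6, 21 months old) had received an AAV2/9 vector carrying rat Fkbp1b under the CaMKII promoter, which is active mainly in excitatory neurons, into CA1 of both hemispheres. The AC group (n = 5 analysed here, 21 months old) had received the same kind of vector with eGFP in place of Fkbp1b, at a higher titer. The YC group (n = 6, 5 to 6 months old) is called sham in the sample labels and not injected in the methods. Age at injection is 12 months for LT, 18 months for ST and 18 months for AC in the labels, and 13 months for LT, 19 months for ST and 13 months for AC in the design text. A comparison of AC with YC therefore holds age, surgery and vector together, and one of LT or ST with AC holds transgene and titer together. Age at injection and length of exposure also differ from AC in LT by the labels (9 months of exposure in LT and 3 months in AC) and in ST by the design text. Within these pairs the parts cannot be told apart. Animals of LT and ST were picked for the arrays among those with high FKBP1b expression, and rats of all 4 groups had been trained in a water maze.

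Complement is a cascade of proteins that tags material for removal. C1q binds its targets through heads built of A, B and C chains, the proteases C1r and C1s attached to it start the classical pathway, and cleavage of C3 yields a fragment that stays on the target and a small one that is read by the receptor C3ar1. C1 inhibitor, the product of Serping1, blocks C1r and C1s. In the brain the C1q chains are made chiefly by microglia, and C1q and C3 are known for marking synapses that microglia then engulf.

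The values were signals of Affymetrix Rat Gene 1.0 ST arrays, summarized by the authors with the Robust Multiarray Average (RMA) method and deposited unlogged. The mean signal per array lay between 439.9 and 445.1. RNA integrity numbers averaged 9.23 ± 0.21 in LT, 9.52 ± 0.12 in ST, 9.38 ± 0.34 in AC and 9.45 ± 0.055 in YC (SD). The probe set that the annotation names Fkbp1b, although the study describes the array as lacking one, gave signals of 843 to 1217 in LT, 427 to 881 in ST, 364 to 458 in AC and 353 to 411 in YC. It was 1.31 higher on the log2 scale in LT than in AC (adjusted p = 8.95e-06) and 0.76 higher in ST (adjusted p = 0.085), where the ranges overlapped. AC replicate 5 had the highest signal of all arrays in each of the 9 complement genes, though for C1r (461, against 457 on AC replicate 4) by little. Its summed signal of microglial markers was 5694, against 3382 to 3640 on the other 4 AC arrays, and its RNA integrity number was 8.9, against 9.3 to 9.8. Its mean log2 score of neuronal markers was -0.48, against -0.03 to 0.09 on the other AC arrays. The single markers given next were named after their values were seen. Wfs1 had a signal of 580 on AC replicate 5 (AC median 2642) and Prox1 of 333 (AC median 825). Rbfox3 and Camk2a were also at their lowest AC value there. Snap25 (11548), Syt1 (7872) and Slc17a7 (5764) were at their highest AC value on the same array, so the list did not fall as a whole. Genes of the choroid plexus were highest on LT 2, LT 5, AC 3 and AC 4 (group and replicate number), and ST replicate 2 had the highest microglial sum of its group (4369). The methods set values more than 2 SD from the group mean to missing. A value on 1 of 5 arrays can lie at most 1.79 SD from its mean and on 1 of 6 arrays at most 2.04 SD. The AC arrays held 0 blank values, against 27 to 73 on each array of the other groups. Among the 9 complement genes the blanks were those of C1qa and C1qc on ST replicate 2, which left n = 5 for these genes in ST.

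**Figure D1:**
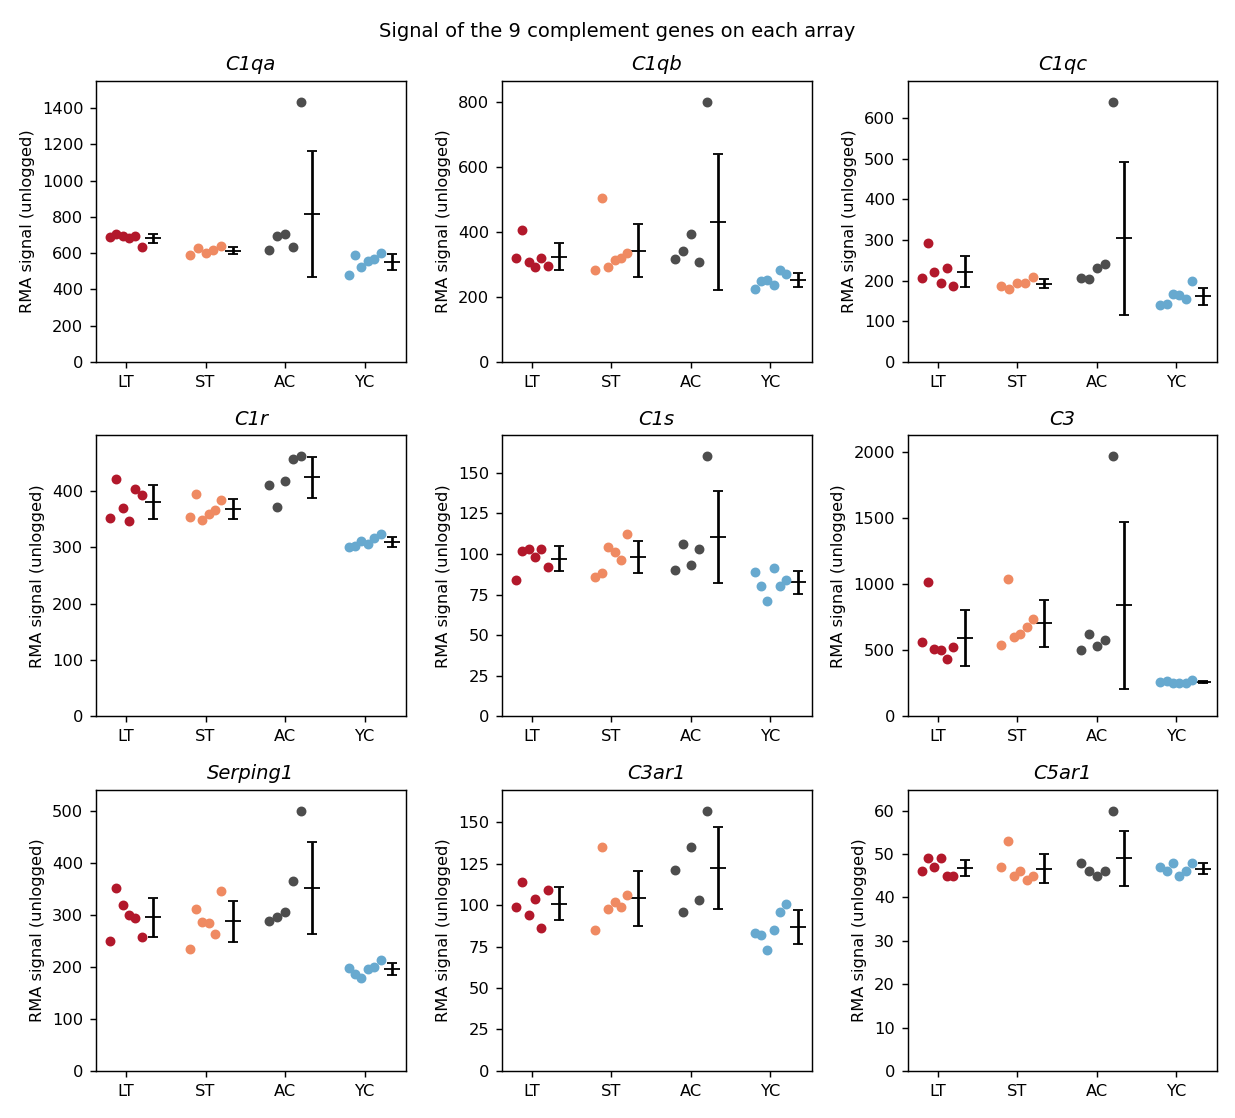
Unlogged RMA signal (y axis, from 0) of each complement gene on every array of the LT, ST, AC and YC groups; the bar beside the points gives mean and SD. AC replicate 5 is the highest point in all 9 panels, and C3 is at 434 or more on every array of LT, ST and AC and at most 275 in YC.

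The aging comparison asked which complement genes differed between the AC and YC hippocampus. Of the 9 genes 8 rose in AC (limma, Benjamini-Hochberg adjusted p under 0.05 over 13339 probe sets), against 5.56% of all probe sets higher and 9.75% in either direction. Since the genes were chosen with earlier results of these data known, these shares stand beside the count as a description only. With all arrays C3 and Serping1 rose furthest, the C1q chains followed, and C5ar1 was the gene that did not pass. C1qa (log2 fold change 0.488) was level with C3ar1 (0.483), and without AC replicate 5 it was at 0.26, below C1r at 0.42. The median log2 fold change was 0.49 over the 9 genes and -0.01 over all probe sets. In bulk tissue, more cells of a type and more RNA per cell cannot be told apart.

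The C1q chains lie side by side on rat chromosome 5, in the order C1qb, C1qc and C1qa. C1qa, the A chain, had signals of 619, 694, 705, 634 and 1434 in AC, against a lowest value of 482, a median of 561 and a highest value of 601 in YC. Every AC array was above every YC array, and the log2 fold change was 0.49 ± 0.14 (SE, adjusted p = 0.034). C1qb, the B chain, had signals of 317, 342, 394, 308 and 802 in AC, against a lowest value of 225, a median of 251 and a highest value of 284 in YC. The groups did not overlap, and C1qb rose by 0.67 ± 0.18 on the log2 scale, in which all differences below are given (SE, adjusted p = 0.025). C1qc, the C chain, had signals of 207, 203, 232, 241 and 640 in AC, against a lowest value of 141, a median of 159.5 and a highest value of 198 in YC. Again no AC array fell into the YC range, with a log2 fold change of 0.77 ± 0.21 (SE, adjusted p = 0.025). For all 3 chains AC replicate 5 was more than 2 times the mean of the other 4, by factors of 2.16 for C1qa, 2.36 for C1qb and 2.90 for C1qc. Without it the log2 fold changes were 0.26 for C1qa, 0.43 for C1qb and 0.46 for C1qc, each still past the test.

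Since the C1q chains were high on the same array, the sequences around their start sites are shown where RefSeq promoters (build GRCr8, 250 bases before to 50 after the start) were matched, with C1r and C3 for comparison. Promoters were matched for C1qa, C1qb, C1r, C3 and C3ar1, and not for C1qc, C1s, Serping1 and C5ar1. They lie at chr5:154419884-154420183 (minus strand) for C1qa, chr5:154407778-154408077 (minus strand) for C1qb, chr4:159098763-159099062 (plus strand) for C1r and chr9:2201290-2201589 (minus strand) for C3. Each is printed 5′ to 3′, with matches to 3 motifs in capitals: GAGGAA, the core of sites bound by the myeloid factor PU.1, TTCNNNGAA, the gamma-activated site, and TTGCNNAA, bound by C/EBP factors, on either strand.
C1qa: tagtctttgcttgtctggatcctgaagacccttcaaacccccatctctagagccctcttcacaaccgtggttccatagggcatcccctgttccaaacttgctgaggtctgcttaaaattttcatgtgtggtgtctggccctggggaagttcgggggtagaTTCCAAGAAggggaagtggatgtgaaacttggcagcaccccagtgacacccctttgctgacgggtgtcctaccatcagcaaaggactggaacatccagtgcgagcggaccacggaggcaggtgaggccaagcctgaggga
C1qb: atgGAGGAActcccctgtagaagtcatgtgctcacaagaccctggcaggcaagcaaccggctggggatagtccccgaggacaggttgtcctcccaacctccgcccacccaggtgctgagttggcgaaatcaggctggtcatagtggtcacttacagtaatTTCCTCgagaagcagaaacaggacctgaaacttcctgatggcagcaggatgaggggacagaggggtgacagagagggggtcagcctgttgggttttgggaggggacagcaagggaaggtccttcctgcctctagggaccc
C1r: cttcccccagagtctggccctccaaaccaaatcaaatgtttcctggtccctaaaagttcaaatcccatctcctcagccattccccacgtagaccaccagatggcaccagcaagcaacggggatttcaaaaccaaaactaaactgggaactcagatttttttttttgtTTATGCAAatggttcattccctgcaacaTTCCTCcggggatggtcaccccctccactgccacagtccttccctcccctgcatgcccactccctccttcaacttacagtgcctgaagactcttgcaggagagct
C3: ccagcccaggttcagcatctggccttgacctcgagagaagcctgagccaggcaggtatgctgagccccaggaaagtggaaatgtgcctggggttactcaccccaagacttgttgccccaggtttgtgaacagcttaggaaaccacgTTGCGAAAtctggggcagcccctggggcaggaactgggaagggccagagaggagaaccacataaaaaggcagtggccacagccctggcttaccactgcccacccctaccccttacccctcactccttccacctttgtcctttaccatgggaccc
C1qa held a gamma-activated site at position -90, C1qb the PU.1 core at -247 and -90, C1r the PU.1 core at -55 and a C/EBP match at -83, and C3 a C/EBP match at -104, all given as the first base relative to the start. C3ar1, at chr4:157756481-157756780 (minus strand), held none of the 3. The PU.1 core was in 2 of the 5 promoters and in 27.6% of all 33469 promoters of the table, the gamma-activated site in 1 of 5 and in 8.87%, and the C/EBP motif in 2 of 5 and in 10.6%. None of the 3 was matched in both C1q promoters.

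C1r and C1s, the proteases of the complex, are neighbors on chromosome 4. C1r had signals of 411, 372, 417, 457 and 461 in AC, against a lowest value of 301, a median of 308 and a highest value of 324 in YC. The lowest AC array was above the highest YC array, and C1r rose by 0.45 ± 0.055 (SE, adjusted p = 0.00021), the lowest adjusted p of the 9 genes. C1s had signals of 90, 106, 93, 103 and 160 in AC, against a lowest value of 71, a median of 82 and a highest value of 91 in YC. Replicate 1 of AC (90) lay within the YC range, and C1s rose by 0.39 ± 0.11 (SE, adjusted p = 0.028). AC replicate 5 was 1.11 times the mean of the other AC arrays for C1r and 1.63 times for C1s. The log2 fold change without it was 0.42 for C1r and 0.25 for C1s, both past the test.

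C3, the component on which the pathways meet, had signals of 506, 625, 532, 575 and 1967 in AC, against a lowest value of 250, a median of 257 and a highest value of 275 in YC. Its YC signals were tightly grouped, all AC arrays were above them, and C3 rose 2.77-fold (log2 fold change 1.47 ± 0.27, SE, adjusted p = 0.0026). On AC replicate 5 the signal was 3.52 times the mean of the other AC arrays, and without that array the log2 fold change was 1.11, past the test. Serping1, the C1 inhibitor, had signals of 289, 296, 307, 366 and 501 in AC, against a lowest value of 179, a median of 198 and a highest value of 213 in YC. The groups were apart on every array, and Serping1 rose 1.76-fold (log2 fold change 0.82 ± 0.12, SE, adjusted p = 0.00045). The value was 0.68 without AC replicate 5.

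Of the receptors, C3ar1 had signals of 121, 96, 135, 103 and 157 in AC, against a lowest value of 73, a median of 84 and a highest value of 101 in YC. AC replicate 2 (96) lay inside the YC range, and C3ar1 rose by 0.48 ± 0.12 (SE, adjusted p = 0.015). C5ar1, the receptor for the small fragment of C5, had signals of 48, 46, 45, 46 and 60 in AC, against a lowest value of 45, a median of 46.5 and a highest value of 48 in YC. Apart from AC replicate 5 the values coincided, close to the signal minimum, and the log2 fold change of 0.06 did not pass (95% confidence interval -0.06 to 0.18, adjusted p = 0.52). It was -0.01 without AC replicate 5.

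In 6 of the 9 genes (the C1q chains, C1r, C3 and Serping1) every AC array was above every YC array, against 3.21% of all probe sets. The count of 8 genes held without AC replicate 5, and calls near the threshold were lost without single YC arrays: C1qa without replicate 1, 3 or 4, C1qc without replicate 2, and C1s without replicate 2 or 3, with adjusted p of 0.051 to 0.066. The count was 3 (C1r, C3 and Serping1) without the 5 arrays with a choroid plexus score over 0.5 (AC 3, AC 4, LT 1, LT 2 and LT 5). That left only AC 1, AC 2 and AC 5 in AC, and LT 3, LT 4 and LT 6 in LT. The count was also 3 (the same genes) in a fit of AC and YC alone. Fisher's least significant difference from an analysis of variance on unlogged signals gave 3 (C1r, Serping1 and C3ar1). Its p were adjusted over all probe sets. The methods instead called genes at an unadjusted p, first in the analysis of variance and then between groups, so the 3 are not the study's own count. The shares of all probe sets called under these other settings are not given here. Whether the lost calls are particular to the complement genes was not tested.

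Microglial markers moved with these genes. Of 9 tested microglial markers 8 rose in AC, with a median log2 fold change of 0.41, and their summed signal was 3382 to 5694 in AC and 2788 to 2949 in YC. Among the defining markers Aif1 rose by 0.47 (adjusted p = 0.025), Cx3cr1 and P2ry12 also passed, and none of the list was near 0. Markers of perivascular macrophages and monocytes summed to 961 to 1436 in AC and 753 to 880 in YC (2 of 7 rose), endothelial markers to 1749 to 2280 in AC and 1555 to 1673 in YC (6 of 7 rose), and meningeal fibroblast markers to 2240 to 5347 in AC and 1906 to 2225 in YC (2 of 10 rose and 1 fell). Of the astrocyte markers 3 of 8 rose, Gfap among them, while 4 of 8 had log2 fold changes below 0, and the median was -0.0044. Their sums were 22000 to 24400 in AC and 21562 to 22431 in YC. Choroid plexus markers summed to 2719 to 39072 in AC and 3349 to 4208 in YC, and none of 12 passed. With the choroid plexus score as a covariate 8 of the 9 complement genes were called in AC, as without it. The part of the other markers in the complement result was not tested.

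**Figure D2:**
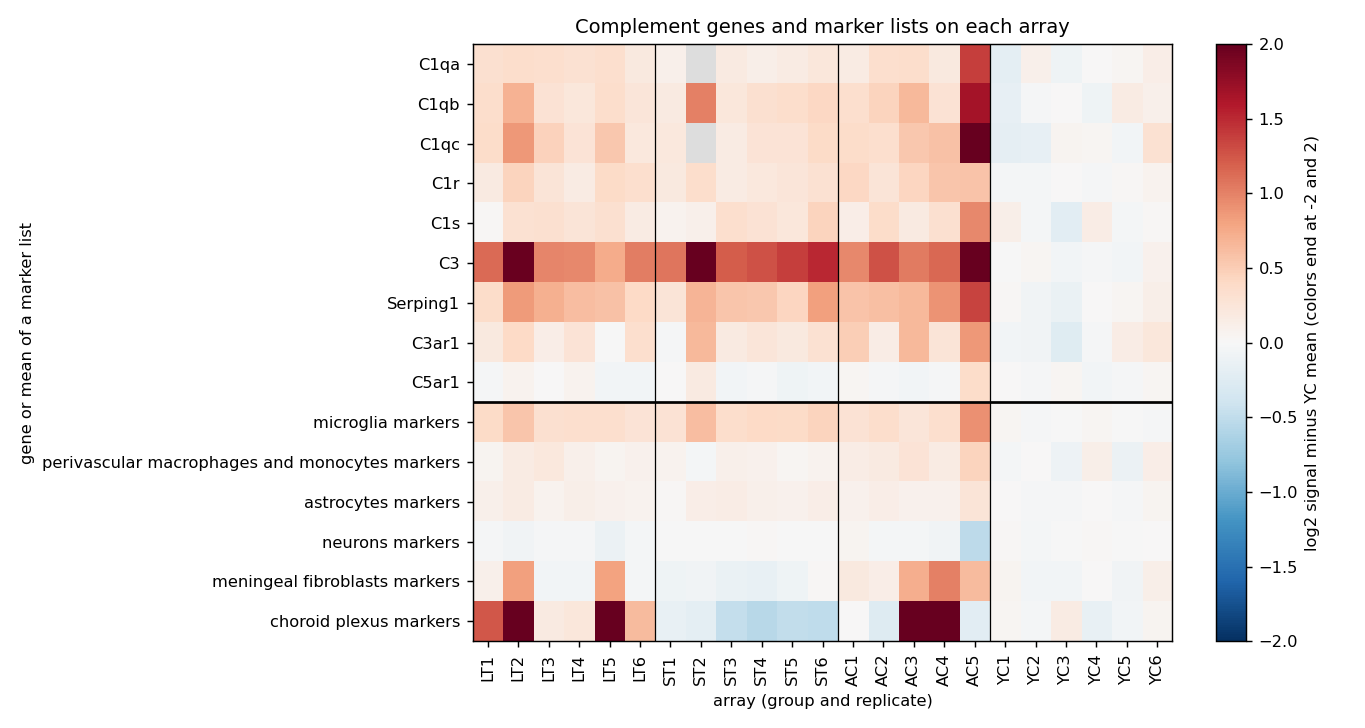
Log2 signal of each complement gene, and mean log2 signal of 6 marker lists, minus the YC mean, on the 23 arrays ordered LT, ST, AC, YC (columns); red is above and blue below the YC mean, gray is a blank value. The column of AC replicate 5 is red for all 9 genes and for the microglial markers and blue for the neuronal markers, while the choroid plexus markers are darkest in other columns (LT 2, LT 5, AC 3 and AC 4).

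Whether FKBP1b vectors moved these genes was asked in the comparisons with AC. No complement gene passed in LT against AC (0 of 9, with 0.075% of all probe sets called), in ST against AC (0 of 9, with 0% called) or in the mean of LT and ST against AC (0 of 9, with 0.03% called). These comparisons use the same AC arrays, so their values are not independent of each other. All 9 genes had log2 fold changes below 0 in LT against AC, as did 51.8% of all probe sets, with a median of -0.23. In ST against AC all 9 were below 0 as well, as were 43.3% of all probe sets, with a median of -0.22. At an unadjusted limma p under 0.05, 2 genes were lower in LT (C1r and C3ar1, with 6.59% of all probe sets). In ST 4 were lower (C1qa, C1qc, C1r and Serping1, with 4.91%). For C1qa and C1qc the ST values leave out replicate 2, which was blank, while AC replicate 5 stayed in. In the mean of LT and ST all 9 were below AC (46.8% of all probe sets), from -0.41 to -0.06, and 4 had an unadjusted p under 0.05 (5.54%).

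The values of the C1q chains against AC moved with AC replicate 5. C1qa had a lowest signal of 634, a median of 691.5 and a highest of 703 in LT, and signals of 588, 626, 600, 616 and 642 in ST (replicate 2 blank and left out of the fit), against the AC values of 619 to 1434. All LT arrays, and all ST arrays with a value, lay within or below the range that AC covers without replicate 5 (619 to 705). The blank array, ST replicate 2, was the highest of ST for C1qb and C3, so where it would lie for C1qa and C1qc is not known. The log2 fold change of C1qa was -0.18 ± 0.14 in LT (SE, adjusted p = 0.61) and -0.33 ± 0.15 in ST (adjusted p = 0.48), and without AC replicate 5 it was 0.04 in LT and -0.11 in ST. C1qb had a lowest signal of 294, a median of 314 and a highest of 408 in LT and a lowest of 285, a median of 318 and a highest of 506 in ST, against 308 to 802 in AC. LT replicate 2 and ST replicate 2 were the high arrays of their groups. The log2 fold change of C1qb was -0.32 ± 0.18 in LT (SE, adjusted p = 0.48) and -0.26 ± 0.18 in ST (adjusted p = 0.67), and without AC replicate 5 it was -0.07 in LT and -0.01 in ST. C1qc had a lowest signal of 186, a median of 213.5 and a highest of 293 in LT, and signals of 186, 179, 194, 194 and 209 in ST (replicate 2 again blank), against 203 to 640 in AC. In ST only replicate 6 (209) was above the lowest AC arrays. Its log2 fold change was -0.31 ± 0.21 in LT (SE, adjusted p = 0.54) and -0.50 ± 0.22 in ST (adjusted p = 0.48), and without AC replicate 5 it was -0.0047 in LT and -0.20 in ST.

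C1r had the smallest excess on AC replicate 5 and its values against AC moved least without it. The protease had a lowest signal of 346, a median of 380.5 and a highest of 421 in LT and a lowest of 348, a median of 362 and a highest of 395 in ST, against 411, 372, 417, 457 and 461 in AC. All LT and ST arrays but LT replicate 2 were below 4 of the 5 AC arrays, and the ranges overlapped in both comparisons. The log2 fold change of C1r was -0.15 ± 0.055 in LT (SE, adjusted p = 0.24) and -0.20 ± 0.055 in ST (adjusted p = 0.28), and -0.12 in LT and -0.17 in ST without AC replicate 5. C1s was at -0.16 in LT and -0.15 in ST, and at -0.02 in LT and -0.01 in ST without that array.

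C3 had a lowest signal of 434, a median of 517.5 and a highest of 1019 in LT and a lowest of 543, a median of 651 and a highest of 1042 in ST, against 506, 625, 532, 575 and 1967 in AC. The median of ST was above that of AC (575), and the median of LT below it. With all arrays the log2 fold change of C3 was -0.34 ± 0.27 in LT (SE, adjusted p = 0.61) and -0.06 ± 0.27 in ST (adjusted p = 0.97), and without AC replicate 5 it was 0.03 in LT and 0.30 in ST (adjusted p = 0.64). The sign of C3 in both comparisons thus depended on AC replicate 5, and in ST it was also above 0 without ST replicate 1 (0.0072). Serping1 was at -0.23 ± 0.12 in LT (SE, adjusted p = 0.44) and -0.27 ± 0.12 in ST (adjusted p = 0.48), and at -0.09 in LT and -0.13 in ST without that array. C3ar1 was at -0.26 ± 0.12 in LT (SE, adjusted p = 0.37) and -0.22 ± 0.12 in ST (adjusted p = 0.55), and at -0.16 in LT and -0.13 in ST without it. C5ar1 was at -0.06 in both LT and ST, with signals of 45 to 49 in LT and 44 to 53 in ST, and at 0.02 in LT and 0.01 in ST without that array. Without AC replicate 5 the median over the 9 genes was -0.02 in LT (6 below 0) and -0.11 in ST (7 below 0), and 0 of 9 genes passed in either comparison. The median of the 9 microglial markers was -0.05 in LT and 0.01 in ST against AC, with all arrays in the fit. For the 7 endothelial markers it was -0.23 in LT, where 1 fell, and -0.22 in ST, where 0 were called, with sums of 1636 to 1871 in LT and 1716 to 1846 in ST, against 1749 to 2280 in AC. No marker of the following lists was called. The median of the meningeal fibroblast markers was -0.29 in LT and -0.44 in ST, that of the perivascular macrophage and monocyte markers -0.12 in LT and -0.21 in ST, and that of the red blood cell markers -0.61 in LT and -0.59 in ST. For the choroid plexus markers it was 0.08 in LT and -1.89 in ST, where 12 of 12 were below 0. With the choroid plexus score as a covariate the median of the 9 complement genes was -0.23 in LT and -0.25 in ST, with 0 called; the part of the other markers in these values was not tested.

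**Figure D3:**
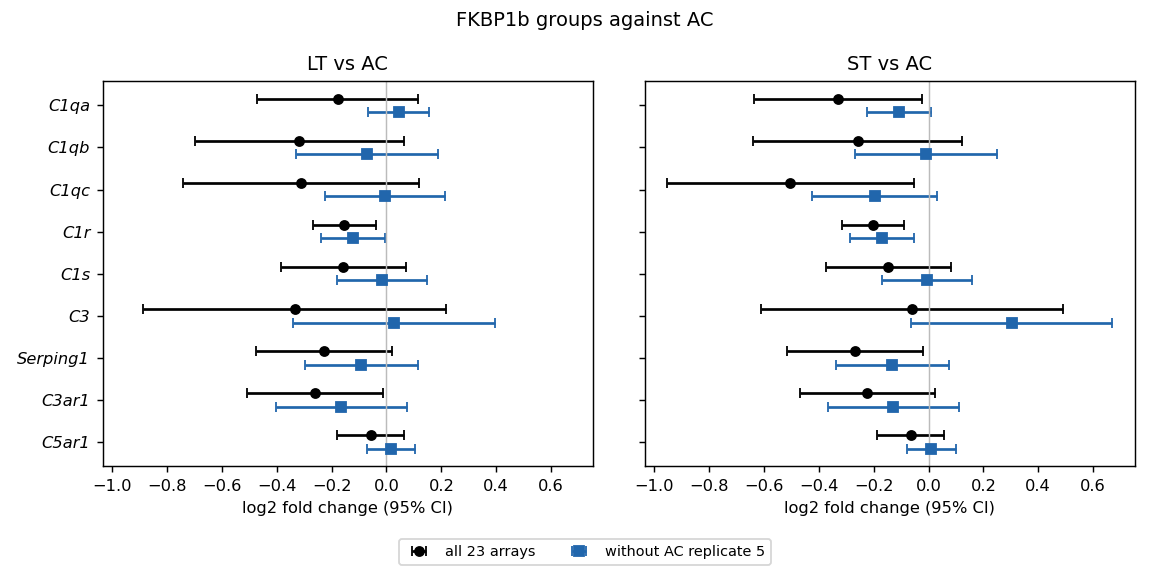
Log2 fold change of each complement gene in LT and in ST against AC (x axis) with its 95% confidence interval, with all 23 arrays (black circles) and without AC replicate 5 (blue squares). All black circles are below 0, while without that array the medians are -0.02 in LT and -0.11 in ST and C3 in ST is at 0.30.

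Set against YC, the FKBP1b groups had 3 of 9 genes higher in LT (C1r, C3 and Serping1; 0.81% of all probe sets higher, 1.03% in either direction) and the same 3 genes higher in ST (2.71% higher, 4.15% in either direction). C3 in LT (434 to 1019) and in ST (543 to 1042) was above every YC array (250 to 275), with log2 fold changes of 1.13 ± 0.25 in LT (SE, adjusted p = 0.032) and 1.41 ± 0.25 in ST (adjusted p = 0.0043). Serping1 ran from 251 to 352 in LT and 234 to 346 in ST, against 179 to 213 in YC, and rose by 0.59 ± 0.11 in LT (SE, adjusted p = 0.016) and 0.55 ± 0.11 in ST (adjusted p = 0.010). C1r rose by 0.29 ± 0.052 in LT (SE, adjusted p = 0.0087) and 0.25 ± 0.052 in ST (adjusted p = 0.011), again without overlap with YC. Groups did not overlap in 5 genes in LT (C1qa, C1qb, C1r, C3 and Serping1; 2.29% of all probe sets) and 4 in ST (C1qb, C1r, C3 and Serping1; 3.49%).

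The C1q chains did not pass in either FKBP1b group. C1qa had log2 fold changes of 0.31 in LT (adjusted p = 0.31) and 0.16 in ST (adjusted p = 0.56), C1qb of 0.36 in LT (adjusted p = 0.39) and 0.41 in ST (adjusted p = 0.17), and C1qc of 0.45 in LT (adjusted p = 0.31) and 0.26 in ST (adjusted p = 0.50). C1s was at 0.23 in LT and 0.24 in ST, and C3ar1 at 0.22 in LT and 0.26 in ST. AC replicate 5 enters these tests through the shared estimate of variance: without it 5 genes were called in LT (C1qa, C1qc, C1r, C3 and Serping1) and 5 in ST (C1qb, C1r, C1s, C3 and Serping1), with the same fold changes. Shares of all probe sets called are not given here for this or the other settings below. The changed counts therefore do not set these genes apart. The call of C3 in LT was lost without any 1 of 10 arrays (YC replicates 1 to 6 and LT replicates 1, 2, 3 and 6; adjusted p of 0.051 to 0.075), and no gene was called in LT without the 5 arrays high for the choroid plexus. Microglial markers passed in 4 of 9 in LT (sums of 3419 to 4233) and in 7 of 9 in ST (3419 to 4369), against 2788 to 2949 in YC, and the part of these markers was not tested. Choroid plexus sums were 4025 to 31962 in LT and 2815 to 3414 in ST, against 3349 to 4208 in YC, and with the choroid plexus score as a covariate 0 genes were called in LT and 3 in ST (C1r, C3 and Serping1).

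**Figure D4:**
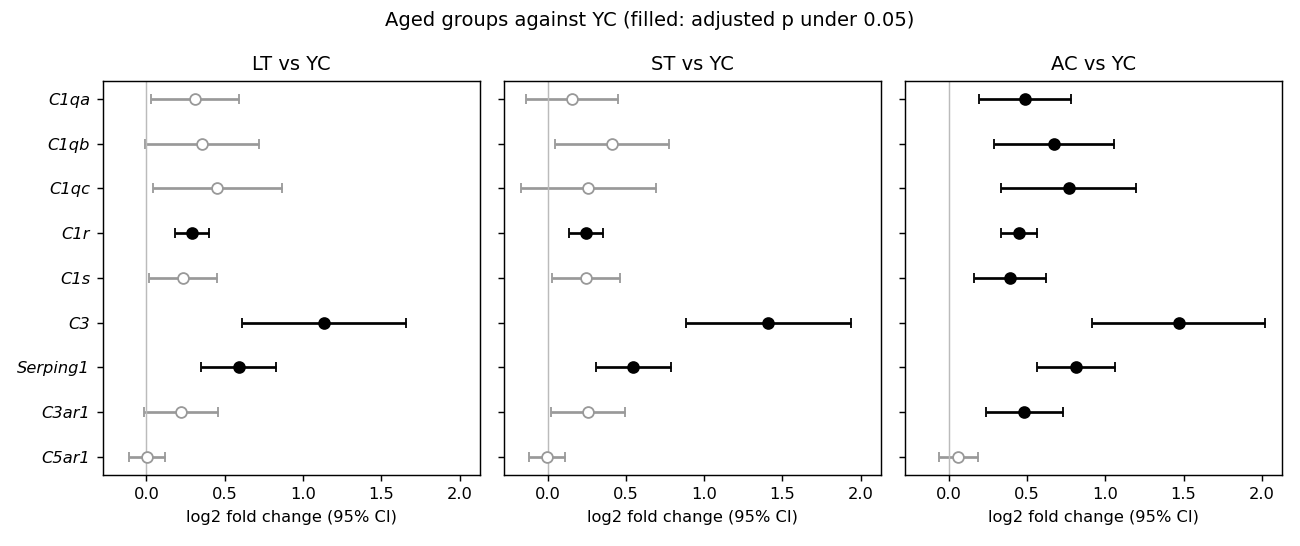
Log2 fold change of each complement gene against YC (x axis, 95% confidence interval) in LT, ST and AC; filled points passed at an adjusted p under 0.05. C1r, C3 and Serping1 are filled in all 3 panels, and C5ar1 is near 0 in each.

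LT and ST were compared directly. None of the 9 genes passed (0.0075% of all probe sets called), and none had an unadjusted p under 0.05. The log2 fold changes of LT against ST ran from -0.27 for C3 (95% confidence interval -0.80 to 0.25) to 0.19 for C1qc (-0.24 to 0.62), so the intervals still hold sizeable differences either way. The narrowest interval was that of C1r, at 0.05 with bounds of -0.06 and 0.16. In the F test over the 4 groups 3 of 9 genes passed (C1r with an adjusted p of 0.00058, C3 with 0.0045 and Serping1 with 0.0019; 5.46% of all probe sets), and without AC replicate 5 there were 6, with the C1q chains added. The share of all probe sets that passed without that array is not given here.

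How the genes varied within the groups differed between members. AC replicate 5 was the highest of all 23 arrays for each of the 9 genes. Among the AC arrays alone it was thus highest for all 9, against 27.9% of all probe sets. The share of all probe sets for which it was highest of the 23 is not given here. In 6 of the 9 (C1qa, C1qb, C1qc, C1s, C3 and C5ar1) its gap to the next AC array was also beyond the critical value of Dixon's outlier test, against 3.58% of all probe sets. ST replicate 2 or LT replicate 2 came next for C1qb, C1qc, C3 and C5ar1. After taking away group means, log2 signals of C1qa and C1qb correlated at r = 0.91 over 22 arrays, and at 0.57 without AC replicate 5; for C1qb and C1qc r was 0.91, and 0.62 without it, and for C1qa and C1qc 0.90, and 0.41 without it. C1qb and C3 kept the closest relation (0.91, and 0.76 without AC replicate 5). That pair includes ST replicate 2, which was high for both genes, whereas pairs with C1qa or C1qc lack it because it was blank. The neighbors C1r and C1s had an r of 0.31, and 0.08 without that array, and C1s and Serping1 of 0.82, and 0.65 without it. These values describe 22 or 23 arrays that share groups and processing.

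The 5 genes most like each member, by the same measure over all arrays, overlapped between members: Ptpn6 was among them for C1qa, C1qb, C1qc and Serping1, Ctsz for C1qb, C1qc and C3, Csf1r for C1qb and C3, and Adgre1 for C1qb and C1qc. For C3 they were Dock8, Cd4, Csf1r, Pld4 and Ctsz, at r of 0.95 to 0.96, and 0.86 to 0.91 without AC replicate 5. For C1qb they were Anxa3, Ptpn6, Ctsz, Adgre1 and Csf1r, at 0.93 to 0.94, and 0.80 to 0.84 without it. C1qa was most like Cd68 (0.94, and 0.56 without that array) and C1qc most like Ifi30 (0.95, and 0.73 without it). C1r was most like Ttc12 (0.83, and 0.81 without it), C1s most like Nupr1 (0.85, and 0.62 without it), Serping1 most like Cp (0.84, and 0.70 without it), C3ar1 most like Dmrta2 (0.79, and 0.73 without it) and C5ar1 most like Laptm5 (0.92, and 0.78 without it). When the genes were ranked without AC replicate 5, all 5 were again found for C3 and C1qb, 3 of 5 for C3ar1 and C5ar1, 2 of 5 for C1r, and 0 of 5 for C1qa, C1qc, C1s and Serping1. The rankings of C1qa and C1qc also lack ST replicate 2, so they do not rest on the same arrays as those of C3 and C1qb.

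Other complement genes were counted from a list of 58 names, of which 39 had a tested probe set. In AC against YC 3 of the 39 rose and 2 fell, with a median log2 fold change of 0.03. These were 7.69% of the list higher and 12.8% called in either direction, near the shares of all probe sets (5.56% higher and 9.75% in either direction), so the counts do not set the list apart. Itgb2, the beta chain of complement receptor 3, had signals of 173 to 302 in AC and 123 to 136 in YC and rose by 0.61 ± 0.11 (SE, adjusted p = 0.0022), with its highest value on AC replicate 5. Itgam, the alpha chain of that receptor, had signals of 115 to 349 in AC and 97 to 108 in YC. Its highest value was also on AC replicate 5, and it did not pass. Colec12, a scavenger receptor of the collectin family, rose by 0.29 (adjusted p = 0.012; 189 to 216 in AC and 153 to 184 in YC), with its lowest AC value on replicate 5. Cd46, a membrane regulator, rose by 0.16 (adjusted p = 0.048; 137 to 154 in AC and 122 to 136 in YC). C8a, a chain of the membrane attack complex, fell by 0.39 on the log2 scale (adjusted p = 0.0032; 30 to 39 in AC and 43 to 50 in YC), at signals about the minimum, and Mbl2, a lectin that starts the lectin pathway, fell by 0.32 (adjusted p = 0.023; 72 to 95 in AC and 86 to 114 in YC).

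By role, 1 of 9 genes of lectin recognition and proteases rose (Colec12) and 1 fell (Mbl2). Of the others, 1 of 6 terminal components fell, 1 of 8 regulators rose and 1 of 5 receptors and binding proteins rose. None of 2 alternative pathway genes, 4 sushi domain proteins or 5 C1q-like, C1r-like and pentraxin genes passed. None of the 39 passed in LT or ST against AC. In ST against YC 1 rose, which was Itgb2 (0.52, adjusted p = 0.0077), and in LT against YC none passed (Itgb2 0.39, adjusted p = 0.089).

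**Figure D5:**
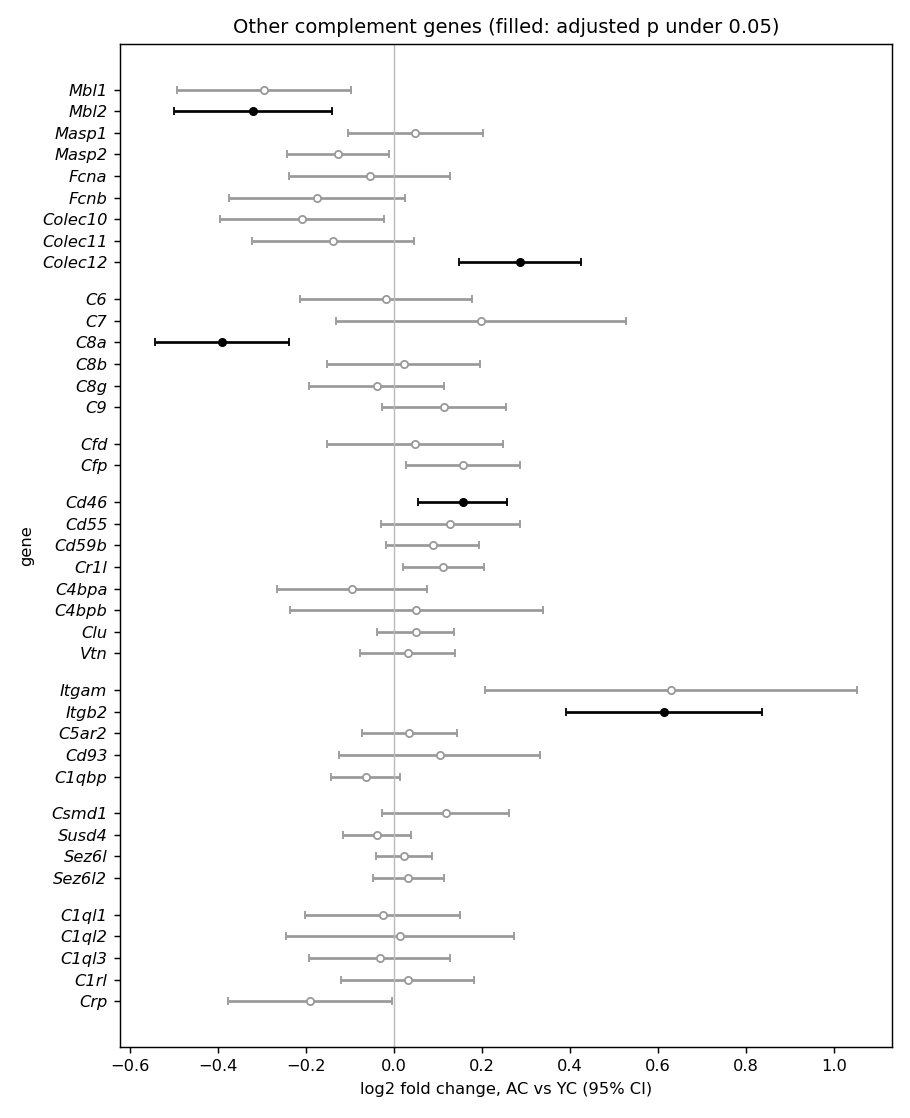
Log2 fold change in AC against YC (x axis, 95% confidence interval) of the 39 other complement genes, grouped by role from lectin recognition (top) to C1q-like proteins and pentraxin (bottom); filled points passed at an adjusted p under 0.05. The 3 filled points to the right are Itgb2, Colec12 and Cd46, and the 2 to the left C8a and Mbl2.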

How the data were processed

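The authors deposited unlogged signal intensities per probe set, made with RMA and rounded to whole numbers, with 758 blank values, which were kept as missing. Partek is also named in the submitters' processing notes; no version of either was found in the labels or the methods. Each array was 1 animal, groups came from the sample labels, and the array number sets the precision. Of 29211 probe sets 15307 had 1 gene symbol; 13339 of these reached a signal of 40 on 4 or more arrays and entered limma (version 3.58.1, R 4.3.3). It was run on log2 signals with 1 mean per group, empirical Bayes moderation and Benjamini-Hochberg adjustment over all tested probe sets, at a threshold of 0.05. On simulated AC vs YC data (13339 probe sets, 200 changed) it recovered 38.6% of changes of 0.2 log2 units, 84.3% of 0.4 and 100% of 0.8. These rates describe the simulated probe sets only. In the data the median SD of a probe set was 0.108 in AC and 0.072 in YC. Standard errors of the complement genes in AC vs YC ran from 0.055 for C1r to 0.27 for C3. Recovery at the spread of these genes was not tested, so the rates do not say how often their changes would be found.

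The 9 genes, the other complement genes and the marker lists were chosen with earlier results of these data known. By rule, all 9 genes are described, other complement genes are named where called in any comparison, and markers come from the first 3 of a list. The neuronal markers named for AC replicate 5, and Itgam among the other complement genes, go beyond that rule. The 5 likest genes are those with the highest Pearson correlations of group-centred log2 signals. A gene with several probe sets outside the 9 is given by the one with the highest mean signal. Marker lists not described above had 0 of 8 neuronal, 0 of 4 red blood cell and 0 of 5 liver markers called in AC vs YC, and 1 of 2 neutrophil markers lower.

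Other settings tried were: each array omitted in turn; the one-way analysis of variance of the methods, with Fisher's least significant difference; values beyond 2 SD treated as missing; a minimum of 100 or none; every probe set; equalized array medians; quantile normalization; a robust variance trend; weighted arrays; RNA integrity number or choroid plexus score as covariate; a block for replicate number; a fit of the compared groups only; and omission of 5 arrays with a choroid plexus score above 0.5. Omission of AC 5 with ST 2, and of AC 3, AC 4, LT 2 and LT 5, was decided after seeing the data. In the analysis of variance the p between groups were adjusted over all probe sets, unlike the calls of the methods, which used unadjusted p.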

Additional observations from a re-analysis of the deposited data

Results flagged for a closer look

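Of 36 gene and group combinations 11 had an array whose gap to the next, as a share of the group's range, was beyond Dixon's critical value. For a single combination chance gives about 1 in 20. The genes were measured on the same arrays, so the combinations are not independent and the count is no test against that share. AC replicate 5 was such a high array for C1qa (1434), C1qb (802), C1qc (640), C1s (160), C3 (1967) and C5ar1 (60). ST replicate 2 was one for C1qb (506) and C5ar1 (53), and LT replicate 2 for C1qb (408) and C3 (1019). For C1qa in LT the lowest array, replicate 6 (634), stood apart. AC replicate 5 was both highest of its group and beyond the critical value for 3.58% of all probe sets.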

How the results depend on the processing

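In AC vs YC 8 complement genes were called, and 3 on omission of the 5 arrays with a high choroid plexus score, 3 in the analysis of variance on unlogged signals, 3 with the compared groups only, 4 on omission of AC 3, AC 4, LT 2 and LT 5, and 6 to 8 without single arrays. In LT vs YC 3 were called, and 0 on omission of the 5 arrays, 0 with the choroid plexus score as covariate, 1 in the analysis of variance, 6 with the compared groups only, 6 on omission of AC 5 and ST 2, 0 on omission of AC 3, AC 4, LT 2 and LT 5, and 2 to 5 without single arrays. In ST vs YC 3 were called, and 1 in the analysis of variance, 6 with array weights, 5 on omission of AC 5 and ST 2, and 3 to 5 without single arrays. The F test called 3, and 7 on omission of AC 5 and ST 2 and 3 to 6 without single arrays. In LT vs AC, ST vs AC and LT vs ST 0 genes were called under every alternative run, and in the mean of LT and ST against AC 0 to 1 without single arrays (C1r without AC replicate 2). Where counts moved, the cause was not tested. The shares of all probe sets called under these alternatives are not given here, so moved counts do not set the complement genes apart.

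Signs turned in values that had not passed. C5ar1 in AC vs YC was -0.0028 with array weights and -0.013 on omission of AC 5 and ST 2 (-0.013 to 0.091 without single arrays). In ST vs AC, C3 was 0.091 with RNA integrity number as covariate, 0.25 with array weights and 0.18 on omission of AC 5 and ST 2 (-0.19 to 0.30 without single arrays). C5ar1 was 0.0024 with array weights (-0.10 to 0.011 without single arrays), and C1s 0.024 on omission of AC 5 and ST 2 (down to -0.21 without single arrays). In LT vs AC, omission of AC 5 and ST 2 gave 0.044 for C1qa, 0.028 for C3 and 0.018 for C5ar1, and array weights 0.0049 for C5ar1. Without single arrays C1qa ran from -0.26 to 0.044, C3 from -0.50 to 0.028 and C5ar1 from -0.086 to 0.018. Of the single-gene values over all settings 18 turned sign, 49 lost a call and 17 gained one, and 1590 did neither.

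Replicate numbers did not pair the arrays (r of deviations between same-numbered arrays -0.39 to 0.21, 33 pairs). With replicate number as a block 8 genes were called in AC vs YC, 3 in LT vs YC, 3 in ST vs YC and 0 against AC, and 1169 probe sets in all were called in AC vs YC, against 1300 without the block.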
